A study of Sus scrofa with 105 samples.

Results

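Frontal lobe from piglets killed 1 week after diffuse traumatic brain injury was compared with frontal lobe from piglets killed 1 day after it. The members are the 25 frontal lobe libraries, out of 105 libraries with 53 animal codes in the whole series (the design text gives a smaller number of subjects), whose names in the count table matched samples of those groups: 15 at 1 week and 10 at 1 day. All animals were female piglets (Sus scrofa), a model of pediatric diffuse brain injury, and the tissue was formalin-fixed and paraffin-embedded. The 1 week animals were injured, untreated, and survived 6 to 8 days. The 1 day animals were injured, untreated, and survived 1 day. The other frontal lobe groups, 18 sham or naive untreated animals (0 to 8 days) and 9 injured animals that received cyclosporine A at 20 mg/kg per day and were studied at 30 hours, entered the same fit, which shares 1 estimate of the spread, and sham levels and differences from sham are given beside some injured ones. Age and the means of injury are not given in the labels used here. P-values assume that each library code stands for a separate animal and that animals are independent. The 15 1 week animals have only 8 distinct codes before the hyphen, whereas the 10 1 day animals have 10. What a shared code means is not given in the labels, and no test allowed for it.

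MicroRNAs (miRNAs) are short RNAs that guide Argonaute proteins to messenger RNAs and lower the protein made from them. One hairpin precursor can release a mature miRNA from each of its arms, named -5p and -3p, and miRNAs with the same seed region share many targets. In brain, neurons hold much miR-124 and miR-9, oligodendrocytes use miR-219 and miR-338 as they mature, astrocytes are rich in miR-23, miR-27 and miR-29, and miR-21, miR-146 and miR-155 are known from glial and immune reactions. Bulk tissue was sequenced, so fewer cells of a type and less miRNA per cell cannot be told apart.

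Of the 15 1 week libraries, 4 stood apart in library total and let-7 share, a split made after the data were seen. These 4 libraries, replicates 1, 2, 3 and 5, held 2419153 to 3514530 counts, and the let-7 family with miR-98 took 84.95 to 86.03% of them. The other 11 1 week libraries held 4779547 to 11305735 counts with a let-7 share of 74.93 to 80.30%, and the 10 1 day libraries held 5707853 to 12008130 counts with 73.31 to 77.78%. The 4 libraries detected 287 to 295 miRNAs with at least 1 count, against 315 to 331 in the other 1 week libraries and a median of 329.5 and highest value of 335 at 1 day. The mean number detected at 1 week minus that at 1 day was -14.47 (permutation p = 0.0017, unadjusted). Without the 4 libraries it was still -5.836 (p = 0.01974), and with only the 1 week codes carrying U it was -5.2 (p = 0.04767). Over all 15, the mean let-7 share was 78.74 ± 4.39% (SD, n = 15) at 1 week and 75.87 ± 1.354% (SD, n = 10) at 1 day, a difference of 2.88 percentage points (2-sided permutation test, p = 0.0557). Without the 4 libraries the difference was 0.475 points (p = 0.512). The 4 were chosen by this same share, so leaving them out had to lower the difference, and that p-value is no test of it. The geometric mean total at 1 week was 0.682 of that at 1 day (permutation p = 0.0316, adjusted over total and let-7 share 0.0557), and 0.882 of it without the 4 (p = 0.287). A let-7 share above 84% was also found in 3 sham libraries, and these are the 3 sham animals whose codes before the hyphen also occur at 1 week. Of the 6 1 week animals with those codes, 4 are the high let-7 libraries, and none of the 15 other sham or 9 other 1 week libraries was above 84%. The animal codes split with time as well: all 10 1 day codes carry the letter U and begin with 11, 12 or 13, whereas 9 1 week codes carry U and begin with 14, 15 or 17, and 6, the 4 libraries among them, carry no letter. The letter U and the first digits 11 each occur in both groups, but no combination of letter and first digits does, so that combination and survival time cannot be told apart.

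**Figure D1:**
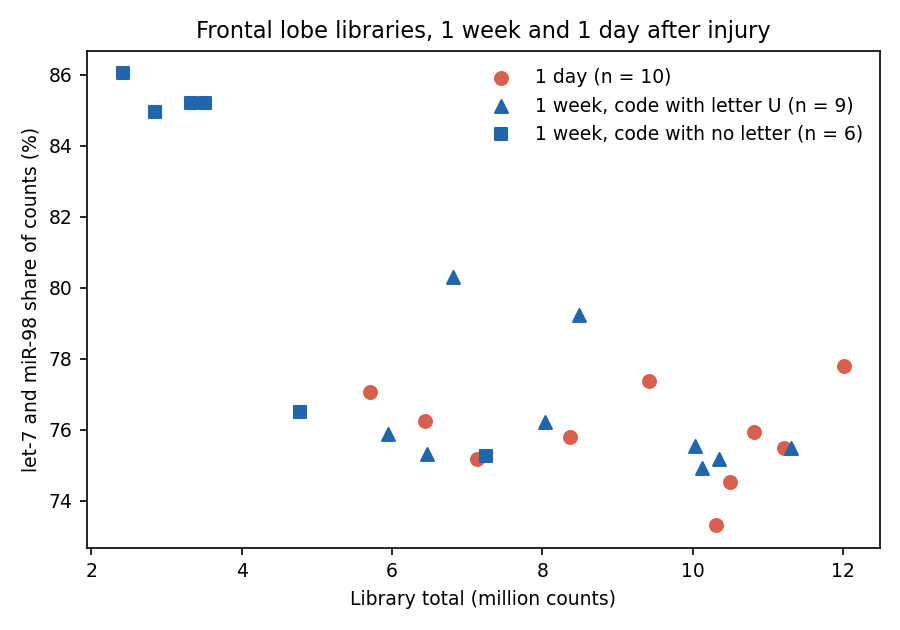
Library total in counts (x axis, in units of 1e+06) against the let-7 and miR-98 share of counts in percent (y axis), 1 point per frontal lobe library, for 10 1 day and 15 1 week animals, the latter divided by whether their code carries a letter. The 4 high let-7 libraries, all with no letter, lie at 84.95 to 86.03% and at most 3514530 counts, apart from the other 21.

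Of 284 miRNAs tested, 66 were higher (23.2%) and 36 lower (12.7%) at 1 week than at 1 day, by the quasi-likelihood test of edgeR with Benjamini-Hochberg adjustment over all 284 at 0.05. These are the calls meant by "called", "rose" and "fell" below. The changes were moderate: the median was 1.64-fold for those that rose and 1.43-fold for those that fell. Changes of more than 2-fold were seen in 18 of the miRNAs that rose and in 1 of those that fell, miR-130b-5p. The median over all 284 lay at a log2 difference of 0.04. The split between directions depended on the scaling: with DESeq2-type size factors (RLE) in the same test, 56 rose and 56 fell, so that 50.0% of the calls were higher against 64.7% with TMM scaling. No miRNA called here changed sign under any of the 15 other settings or the 25 fits that each left out 1 library.

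The 4 libraries carried much of the count. Without them, 25 miRNAs were higher (8.83% of 283) and 7 lower (2.47%), all 32 among the 102 called with them, and the median called miRNA kept 0.731 of its difference. With only the 9 1 week animals whose codes carry U, 39 rose and 17 fell. The choice of 1 day animals mattered as much: against the 5 1 day animals whose codes begin with 11, none was called (60 at an unadjusted p under 0.05, smallest adjusted p 0.0897), although the median called miRNA kept 0.813 of its difference, and against the 5 beginning with 12 or 13, 58 rose and 35 fell.

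**Figure D2:**
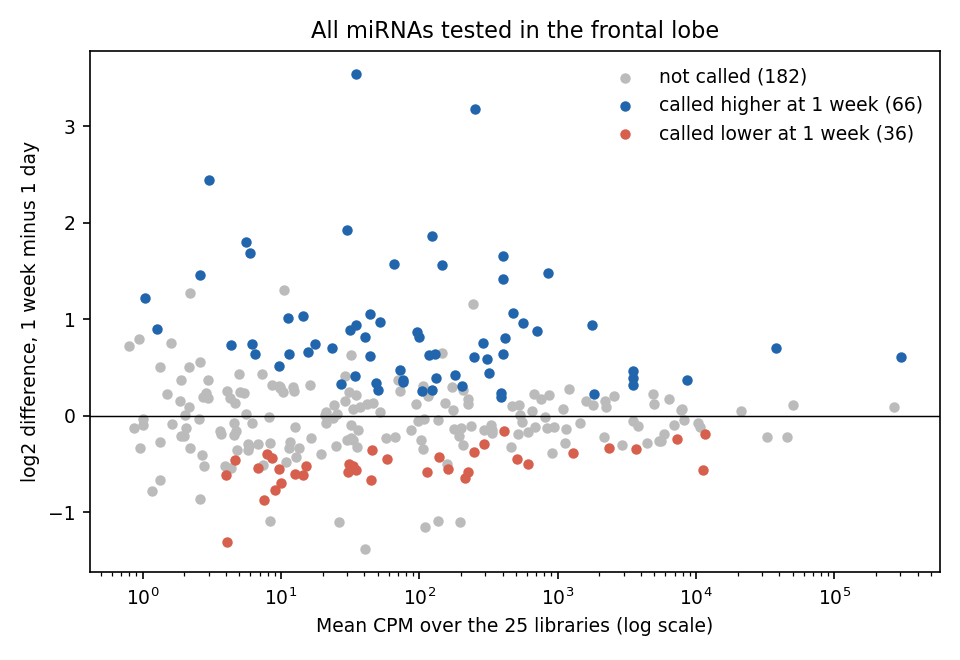
Mean level of each of the 284 miRNAs in CPM over the 25 libraries (x axis, log scale) against its log2 difference, 1 week minus 1 day (y axis), with the 66 called higher in blue, the 36 called lower in orange-red and the others in grey. Calls occur from low to high levels, and differences above 2 on the log2 scale belong to 3 miRNAs.

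**Figure D3:**
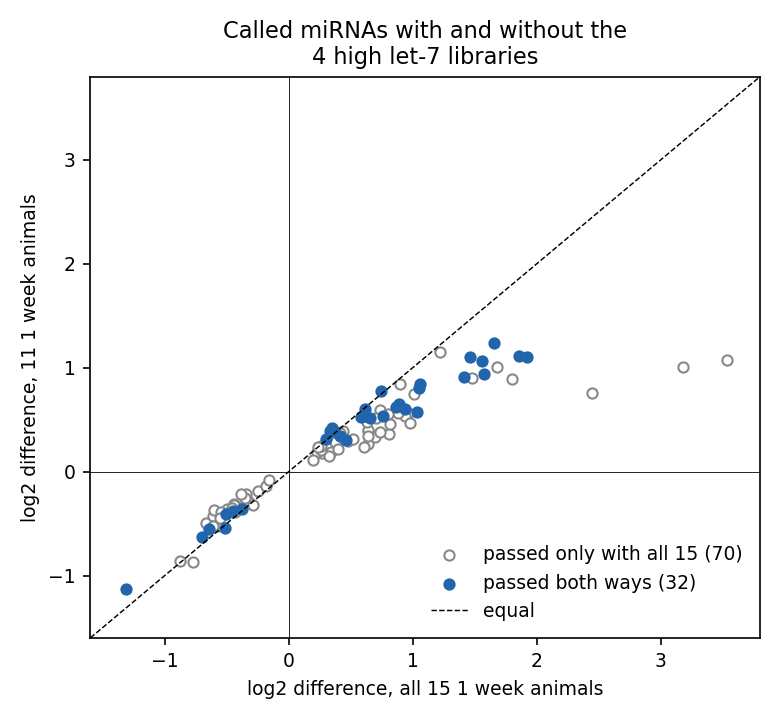
Log2 difference of each of the 102 called miRNAs with all 15 1 week animals (x axis) and with the 11 left after removing the 4 high let-7 libraries (y axis), filled where the miRNA passed both ways (32) and open where it passed only with all 15 (70). Every point keeps its sign, and most higher calls lie under the line of equality.

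miR-22-3p, a widely expressed miRNA, was the only one of the 284 whose levels did not overlap between the groups, and it was singled out after its values were seen. Its level (CPM with TMM factors, used for all levels here) ran from 282 through a median of 352 to 505 at 1 week and from 203 through 236 to 276 at 1 day. It rose 1.502-fold (log2 0.59, SE 0.11, adjusted p = 0.000182), and without the 4 libraries the log2 difference was 0.53 (adjusted p = 0.00311). The sham median was 351, close to the 1 week median and above every 1 day animal.

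Among the 12 miRNAs that the naming rule took for the largest increases, miR-139-3p, from a hairpin in an intron of the phosphodiesterase gene PDE2A, ran from 210.4 through 442 to 1176 CPM at 1 week and from 112 through 175 to 262 at 1 day. In 13 of 15 1 week animals the level lay above the highest 1 day animal, and the sham median was 628. The increase was 3.15-fold (log2 1.65, SE 0.30, adjusted p = 0.000182), with a log2 difference of 1.23 and an adjusted p of 0.0101 without the 4 libraries. miR-193a-5p, a miRNA best known as a growth suppressor in tumours, ran from 14.0 through 28.4 to 128.2 CPM at 1 week and from 4.61 through 12.0 to 19.1 at 1 day. It rose 3.796-fold (log2 1.92, SE 0.38, adjusted p = 0.000182), and the groups overlapped in 4 of the 15 1 week animals. The 4 high let-7 libraries were its 4 highest, from 67.0 to 128.2 CPM, and without them its log2 difference was 1.10 (adjusted p = 0.0253). miR-885-3p, whose hairpin lies in the gene of the neuronal calcium pump ATP2B2, ran from 52.8 through 117 to 512 CPM against 28.3 through 46.6 to 82.5. It rose 3.63-fold (adjusted p = 0.000182; without the 4, log2 1.12, adjusted p = 0.0201). At 1 week 12 of its 15 values exceeded the 1 day maximum.

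miR-874 ran from 24.1 through 54.3 to 83.8 CPM at 1 week and from 17.5 through 26.0 to 34.0 at 1 day, and the 1 week animals spread over almost the whole sham range of 25.7 to 90.8. Its increase was 2.07-fold (log2 1.05, SE 0.20, adjusted p = 0.000182). Within the 12 largest increases it was among the least dependent on the 4 libraries (log2 0.81, adjusted p = 0.0101 without them). miR-370, which lies in the imprinted DLK1-DIO3 region, ran from 7.02 through 15.2 to 45.0 CPM against 5.84 through 9.32 to 10.9 and rose 2.05-fold (adjusted p = 0.000559; without the 4, log2 0.57, adjusted p = 0.0357). Its level lay above the highest 1 day value in 13 of 15 1 week animals. The remaining members of these 12 that also passed without the 4 libraries were miR-769-3p (log2 1.57), miR-1307 (1.56), miR-296-3p (1.41), which lies in the imprinted GNAS region, and miR-7134-3p (1.06).

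The other 3 of the 12 did not pass without those libraries. miR-423-5p, an abundant and widely expressed miRNA, had a log2 difference of 1.48 (adjusted p = 0.00103) with all animals and 0.90 (adjusted p = 0.0581) without the 4. miR-4332 was at 109.6 to 225 CPM in the 4 libraries, at 2.87 to 24.6 in the other 1 week libraries and at 1.42 to 8.00 at 1 day, so its 11.6-fold increase (adjusted p = 0.00269) became a log2 difference of 1.07 without them (adjusted p = 0.29). miR-10386 was at 967 to 1392 CPM in the 4, at 35.0 to 156 in the other 11 and at 12.7 to 87.3 at 1 day. Its 9.07-fold increase (adjusted p = 0.00655) became a log2 difference of 1.00 (adjusted p = 0.35).

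**Figure D4:**
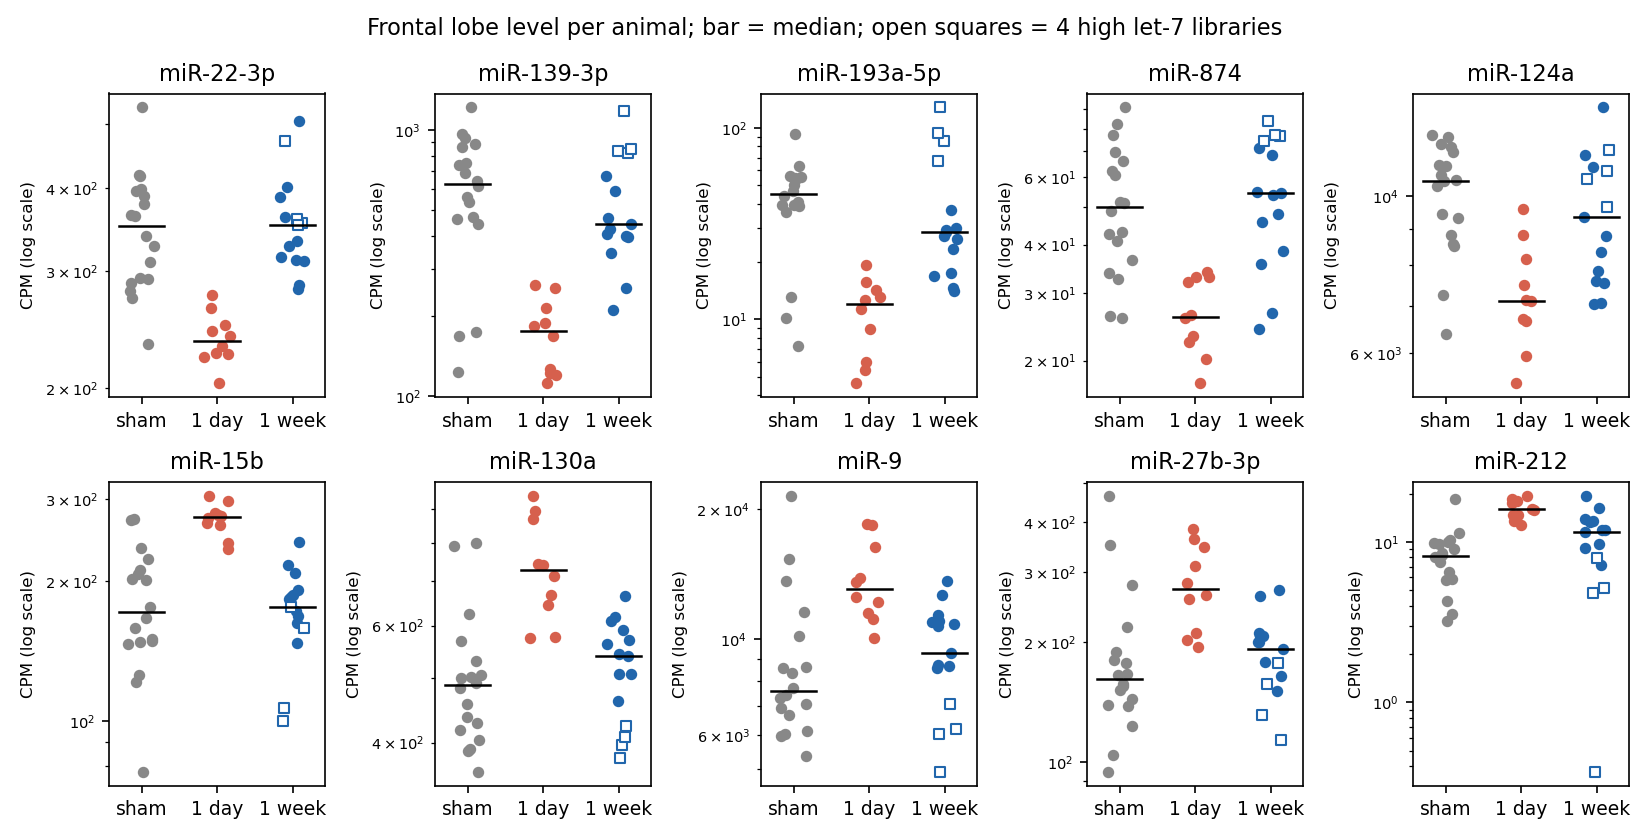
Level in CPM (y axes, log scale) of 10 miRNAs in each frontal lobe animal: 18 sham (grey), 10 at 1 day (red), 15 at 1 week (blue), with the median as a bar and the 4 high let-7 libraries as open squares. The upper row holds miRNAs that rose from 1 day to 1 week and the lower row those that fell, and only miR-22-3p separates the injured groups completely.

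Of the 12 largest decreases, miR-15b was the most even. miR-15b is made from the same transcript as a copy of miR-16, within the gene SMC4, and targets BCL2 and cell cycle genes. It ran from 100.0 through 176 to 243 CPM at 1 week and from 235 through 275 to 305 at 1 day, with 14 of 15 1 week animals below the lowest 1 day animal and a sham median of 171. The decrease was 1.56-fold (log2 -0.65, SE 0.13, adjusted p = 0.000182), and log2 -0.55 (adjusted p = 0.0101) without the 4 libraries. miR-199b-5p, typical of mesenchymal and vessel wall cells, ran from 1.48 through 8.72 to 11.0 CPM against 8.50 through 12.8 to 17.8. It fell 1.62-fold (adjusted p = 0.0104), with a log2 difference of -0.63 (adjusted p = 0.0398) without the 4. miR-15b and miR-199b-5p were the only members of these 12 to pass without them.

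miR-9, which acts in neurons and their precursors and targets the repressor REST, was the most abundant miRNA to fall by over 1.4-fold. It ran from 4924 through 9265 to 13630.0 CPM at 1 week and from 10073 through 13046 to 18506 at 1 day, with 8 of 15 1 week animals below the 1 day range. The decrease was 1.47-fold (log2 -0.56, SE 0.17, adjusted p = 0.0114), and without the 4 libraries, which were the 4 lowest at 4924 to 7089 CPM, it was log2 -0.40 (adjusted p = 0.117). miR-204, abundant in choroid plexus and made from an intron of TRPM3, ran from 45.0 through 101 to 131 CPM against 112 through 140.9 to 184.1 and fell 1.502-fold (adjusted p = 0.00871). At 1 week 11 animals lay below the lowest 1 day value of miR-204, the 4 libraries again lowest, and without them its log2 difference was -0.41 (adjusted p = 0.0956). miR-17-3p, the minor arm of a hairpin in the growth-promoting miR-17-92 cluster, ran from 13.6 through 25.1 to 39.9 CPM against 31.1 through 36.9 to 51.3 and fell 1.498-fold (adjusted p = 0.0093; without the 4, log2 -0.47, adjusted p = 0.0795). Its groups overlapped in 2 of 15 1 week animals.

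miR-27a and miR-27b-3p, which share a seed and are known regulators of lipid genes, had log2 differences of -0.67 and -0.58 (adjusted p = 0.0162 for each), and -0.49 and -0.48 without the 4 libraries (adjusted p = 0.125 and 0.0999). miR-148b-3p, a member of the family that targets the DNA methyltransferase DNMT1, ran from 2.79 through 5.62 to 8.14 CPM against 5.88 through 9.91 to 18.7, a 1.83-fold decrease (adjusted p = 0.0171; without the 4, log2 -0.86, adjusted p = 0.0648). Its size thus hardly changed without the 4 libraries. The same held for miR-135, with a log2 difference of -0.78 (adjusted p = 0.0292) and of -0.87 (adjusted p = 0.0544) without the 4. miR-135 did not pass when 1 day replicate 8 or 9 was left out (adjusted p up to 0.0879). miR-505 (log2 -0.61, adjusted p = 0.0197) passed in all 25 fits that left out 1 library, whereas miR-374a-5p (log2 -0.57, adjusted p = 0.0385) did not without 1 day replicate 1, 8 or 9 or 1 week replicate 11 or 13 (adjusted p up to 0.0822).

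Differences from sham are given here for both times. Each time shares samples with the difference between them, so the values are only set side by side. For the 12 largest increases, the log2 difference of 1 day from sham ran from -5.53 to -0.96 and that of 1 week from sham from -2.35 to 0.09. For the 12 largest decreases, the log2 difference of 1 day from sham ran from 0.47 to 0.95 and that of 1 week from sham from -0.30 to 0.35. miR-139-3p was at log2 -1.83 from sham at 1 day (adjusted p = 3.21e-05) and at -0.17 at 1 week (adjusted p = 0.998). miR-15b was at 0.58 at 1 day (adjusted p = 0.000203) and at -0.07 at 1 week (adjusted p = 0.998). The 6 1 week animals that share a code before the hyphen with 3 sham animals have no such counterpart at 1 day. No combination of letter and first digits occurred in both 1 day and sham animals. In contrast, U with 14, and no letter with 10 or 11, occurred in both 1 week and sham animals. The difference of 1 day from sham therefore cannot be told apart from that combination.

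Cell type lists served to check the tissue and to group the results; members named below outside the naming rule were picked after their values were seen. The 11 neuron-enriched miRNAs tested summed to 40625 to 54021 CPM at 1 week and 47939 to 59458 at 1 day, and 2 of them rose, 1 fell and 8 did not pass (median log2 -0.11, against 0.04 over all 284, of which 23.2% rose and 12.7% fell). With RLE factors 1 rose and 2 fell. miR-124a, which shapes neuronal splicing by lowering PTBP1, ran from 7042 through 9337 to 13353 CPM at 1 week and from 5436 through 7119.5 to 9602 at 1 day. It rose 1.30-fold (log2 0.37, SE 0.11, adjusted p = 0.00623), while miR-9 fell, and the groups overlapped in 8 of 15 1 week animals. The other neuron-enriched miRNA that rose, miR-129a-5p, had a log2 difference of 0.32 (adjusted p = 0.0292) and passed in 16 of the 25 fits that left out 1 library (adjusted p up to 0.0968). Without the 4 libraries none of the 3 passed, with log2 differences of 0.29 for miR-124a (adjusted p = 0.0721), 0.15 for miR-129a-5p (0.365) and -0.40 for miR-9 (0.117).

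Neuronal activity induces miR-132 and miR-212 from a single locus through CREB. miR-132 ran from 122 through 179 to 229 CPM at 1 week and from 151 through 169 to 212.2 at 1 day, with a log2 difference of 0.06 (SE 0.10, adjusted p = 0.653). miR-212 was far less abundant, from 0.369 through 11.6 to 19.4 CPM against 12.8 through 16.0 to 19.4, and fell 1.52-fold (adjusted p = 0.0415). That call was fragile: miR-212 passed in 14 of 25 fits that left out 1 library (adjusted p up to 0.0676), the 4 libraries, at 0.369 to 7.98 CPM, were among its lowest, and without them its log2 difference was -0.37 (adjusted p = 0.168). miR-184, also linked to neuronal activity, rose 1.76-fold (log2 0.82, adjusted p = 0.00366; without the 4, 0.46, adjusted p = 0.121).

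The oligodendrocyte miRNAs, which promote myelination, differed little between the times. miR-219b-3p rose 1.15-fold (log2 0.20, SE 0.08, adjusted p = 0.0488), passed in 10 of 25 fits that left out 1 library (adjusted p up to 0.112), and stood at 0.11 without the 4 libraries (adjusted p = 0.311). miR-338 ran from 964 through 1271 to 1673 CPM against 807 through 993 to 1474, with a log2 difference of 0.28 (adjusted p = 0.0661), and miR-219a did not exceed 5.17 CPM in any injured animal. Among 9 astrocyte-associated miRNAs, 3 fell and none rose (median log2 -0.31), against 12.7% and 23.2% of all 284: miR-27a and miR-27b-3p, described above, and miR-29a-3p, a repressor of collagen genes (log2 -0.33, adjusted p = 0.0129). None of the 3 passed without the 4 libraries, and the list's median was then -0.16.

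None of the 5 microglial and inflammatory miRNAs tested passed (median log2 -0.05; over all 284, 23.2% rose and 12.7% fell). miR-21-5p, induced in reactive glia in many injury models, ran from 92.9 through 135.98 to 167 CPM at 1 week and from 106.5 through 143.2 to 197 at 1 day (log2 -0.05, SE 0.15, adjusted p = 0.799). miR-155-5p, an amplifier of inflammatory signalling, ran from 219.7 through 264 to 380.7 CPM against 249.9 through 313 to 392 (log2 -0.15, SE 0.09, adjusted p = 0.206). The groups overlapped almost fully for both. miR-146a-5p, a brake on the same signalling, lay at or under 5.03 CPM in every injured animal (log2 0.37, adjusted p = 0.36), and miR-146b had a log2 difference of -0.10 (adjusted p = 0.585). None of the 5 leukocyte miRNAs passed either. miR-223, from neutrophils and other myeloid cells, ran from 0.798 to 8.79 CPM at 1 week and from 2.63 to 7.27 at 1 day. miR-142-3p, common to all leukocytes, had a log2 difference of 0.41 (SE 0.22, adjusted p = 0.131).

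Of the 2 erythroid miRNAs tested, 1 rose, against 23.2% of all 284. miR-486 ran from 89.4 through 142.9 to 181.2 CPM at 1 week and from 39.1 through 103 to 145.9 at 1 day and rose 1.55-fold (log2 0.63, adjusted p = 0.0198). Without 1 day replicate 1 its adjusted p was 0.0543, and without the 4 libraries its log2 difference was 0.48 (adjusted p = 0.146). miR-451, the most red-cell-specific miRNA, lay between 0 and 4.51 CPM at 1 week and between 1.28 and 9.63 at 1 day (log2 -0.87, SE 0.52, adjusted p = 0.182). Of 5 endothelial miRNAs (23.2% of all 284 rose), miR-221-3p and miR-222, made from 1 transcript, rose by log2 0.24 (adjusted p = 0.0396) and 0.33 (adjusted p = 0.0365) and the other 3 did not pass, but with RLE factors none rose and 1 fell. miR-221-3p did not pass without the 4 libraries (log2 0.24, adjusted p = 0.0945) and passed in 12 of 25 fits that left out 1 library (adjusted p up to 0.079). miR-222 passed without the 4 libraries (log2 0.40, adjusted p = 0.0287), and lost its call in 8 of 25 fits that left out 1 library (adjusted p up to 0.0782). miR-126-3p, the defining endothelial miRNA, ran from 3434 through 5599 to 5948 CPM against 4918 through 5975 to 6948 (log2 -0.26, SE 0.11, adjusted p = 0.0561). miR-210, induced by hypoxia, did not pass (log2 0.04, adjusted p = 0.827).

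Of 6 miRNAs of vascular mural cells, the smooth muscle and pericytes, 3 fell and none rose, against 12.7% and 23.2% of all 284. These were miR-199b-5p, miR-199a-3p (log2 -0.50, adjusted p = 0.0347) and miR-199a-5p (log2 -0.46, adjusted p = 0.0484), which passed in 9 of the 25 fits that left out 1 library. Of these, only miR-199b-5p passed without the 4 libraries (miR-199a-3p, adjusted p = 0.185, and miR-199a-5p, 0.194). The more abundant smooth muscle miRNAs, miR-143-3p (log2 -0.11, adjusted p = 0.563) and miR-145-5p (log2 0.26, adjusted p = 0.132), did not pass. miR-206, a skeletal muscle miRNA, ran from 20.2 through 38.7 to 90.1 CPM at 1 week and from 13.4 through 22.0 to 31.5 at 1 day. It rose 1.91-fold (log2 0.94, SE 0.20, adjusted p = 0.000482; without the 4, 0.60, adjusted p = 0.0287), while miR-1, made in the same muscle, did not pass (log2 0.20, adjusted p = 0.357).

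Epithelial miRNAs varied widely between animals, and 1 of 9, miR-204, fell, against 12.7% of all 284. miR-182, made with miR-183 and miR-96 in sensory epithelia, lay above 20 CPM, a limit set after its values were seen, in 8 of 10 1 day animals (63.65 to 725.7 CPM) and in 4 of 15 1 week animals (220.5 to 892.6). In the remaining 11 1 week animals it was at 1.51 to 11.1 CPM, and in the remaining 2 1 day animals at 3.45 to 6.28. The log2 difference of miR-182 was -1.10 with an SE of 0.99 (adjusted p = 0.362). Members of the miR-200 family, which keeps epithelial cells in that state, had differences as large and as uncertain, with log2 -1.38 for miR-200b (SE 1.06, adjusted p = 0.292) and -1.15 for miR-429 (SE 1.09, adjusted p = 0.384). The summed level of the 9 ran from 125.45 through 224.34 to 2311.5 CPM at 1 week and from 249.65 through 987.86 to 2112.6 at 1 day, and how much epithelial tissue each block held was not tested.

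**Figure D5:**
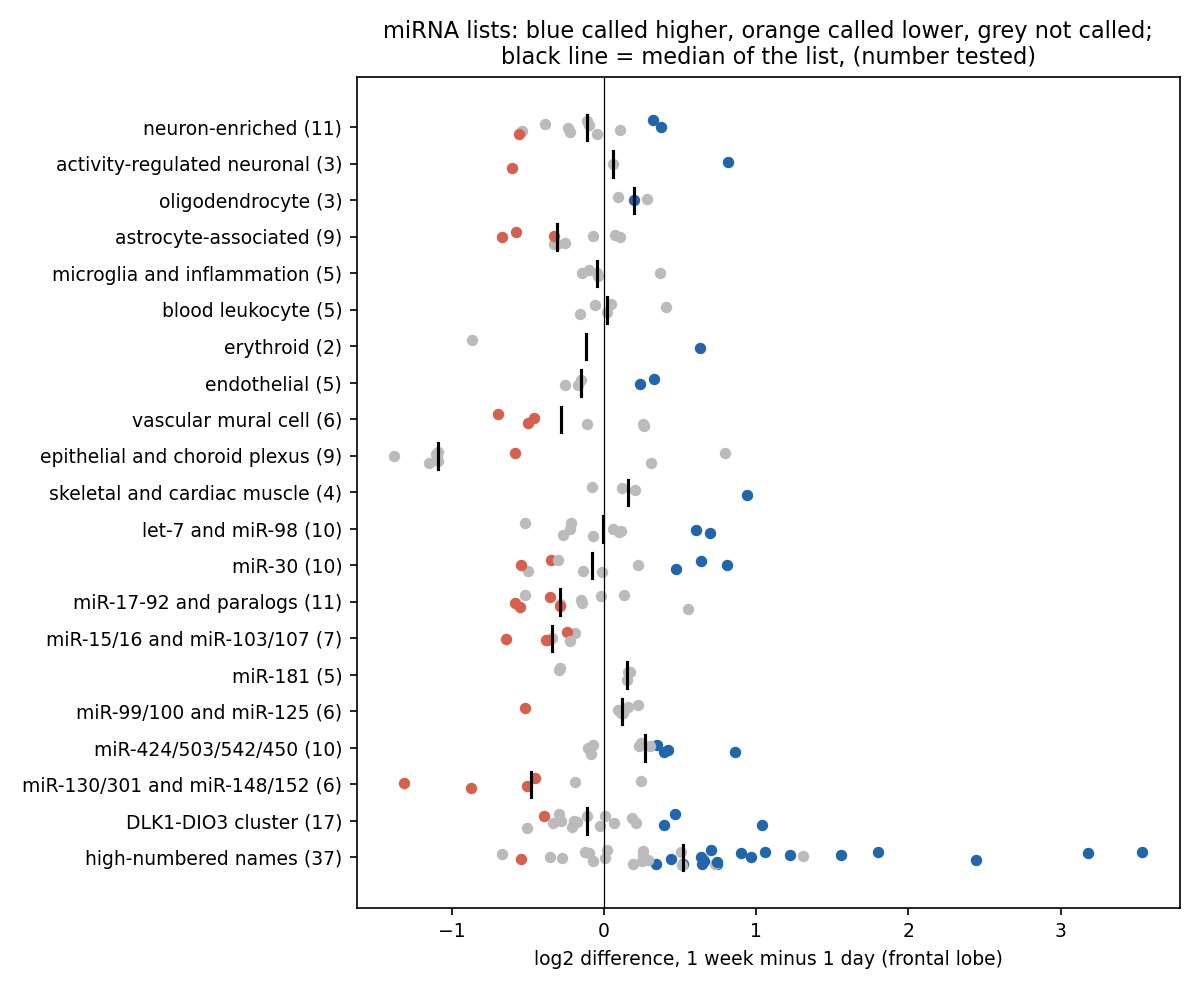
Log2 difference, 1 week minus 1 day (x axis), of each tested member of 21 miRNA lists (rows, number tested in brackets), blue where called higher, orange-red where called lower and grey where not called, with the list's median as a black line. The list of miR-15, miR-16, miR-103 and miR-107 lies wholly left of 0, and the high-numbered names lie mostly to its right.

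Families and clusters were grouped by seed or by shared transcript. All 7 miRNAs in the list of miR-15, miR-16, miR-103 and miR-107, which restrain cyclins and other cell cycle genes, had log2 differences below 0 (median -0.34). This list is not the whole seed group: miR-424 and miR-503, which have related seeds, were counted with their cluster below, and miR-503 rose. Of the 7 listed, 4 fell, against 12.7% of all 284: miR-15b, miR-16, miR-107 and miR-497. miR-16, the most abundant of the 4, ran from 5226 through 6737 to 8442 CPM at 1 week and from 7422 through 7686 to 9281 at 1 day and fell 1.19-fold (log2 -0.25, SE 0.07, adjusted p = 0.00389). At 1 week 12 of 15 animals lay below the 1 day range of miR-16. Without the 4 libraries miR-15b and miR-497 passed (miR-497, log2 -0.36, adjusted p = 0.0357) and miR-16 stood at -0.19 (adjusted p = 0.0665). In the list of miR-130, miR-301, miR-148 and miR-152, which have related seeds, 4 of 6 fell (median log2 -0.48), against 12.7% of all 284, and 3 of these passed without the 4 libraries, against 2.47% of all tested. miR-130a, known from blood vessel growth, ran from 379.01 through 540.8 to 664.6 CPM against 575 through 727 to 941 and fell 1.42-fold (log2 -0.50, SE 0.12, adjusted p = 0.000904; without the 4, -0.41, adjusted p = 0.0259). Both arms of miR-130b fell. miR-130b-5p, the minor arm, ran from 0 through 2.39 to 4.35 CPM against 3.59 through 6.57 to 9.29, a 2.48-fold decrease (adjusted p = 0.00125), and miR-130b-3p had a log2 difference of -0.45 (adjusted p = 0.00201).

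Of 11 miRNAs of the miR-17-92 cluster and its paralogs, which promote proliferation, 4 fell and none rose (median log2 -0.29), against 12.7% and 23.2% of all 284: miR-17-3p, miR-20b, miR-20a-5p and miR-363, and none passed without the 4 libraries. The X-linked cluster of miR-424, miR-503, miR-542 and miR-450, whose members slow the cell cycle, had 4 of 10 higher and none lower (median log2 0.27), against 23.2% and 12.7% of all 284. With RLE factors 2 were called, and in the hippocampus and amygdala 2 of the 10 were higher and 2 lower. Its strongest member, miR-542-5p, ran from 73.4 through 109 to 189 CPM at 1 week and from 46.4 through 67.5 to 85.6 at 1 day and rose 1.82-fold (log2 0.86, SE 0.17, adjusted p = 0.000182). miR-542-5p (log2 0.62, adjusted p = 0.0101), miR-503 (0.34, 0.0357) and miR-424-3p (0.42, 0.0408) passed without the 4 libraries, and miR-450a (0.22, 0.272) did not. miR-424-3p passed in 15 and miR-450a in 20 of the 25 fits that left out 1 library. Their main log2 differences were 0.42 for miR-503, 0.35 for miR-424-3p and 0.39 for miR-450a. miR-424-5p, the major arm of its hairpin, had a log2 difference of -0.10 (adjusted p = 0.587).

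The DLK1-DIO3 cluster, an imprinted and brain-rich group of miRNA genes, gave 3 higher and 1 lower of 17 tested (median log2 -0.11), against 23.2% and 12.7% of all 284. miR-432-5p ran from 2649.6 through 3928 to 5259 CPM against 2306 through 2835 to 3408 and rose 1.38-fold (log2 0.46, SE 0.10, adjusted p = 0.000832; without the 4, 0.30, adjusted p = 0.0408). miR-370 and miR-382 (log2 0.39, adjusted p = 0.00269) were the others that rose, and miR-493-3p fell (log2 -0.40, adjusted p = 0.0348). Neither miR-382 (adjusted p = 0.0581) nor miR-493-3p (adjusted p = 0.127) passed without the 4 libraries. In the let-7 family with miR-98, which times development and is held down by LIN28, let-7c and let-7e rose (log2 0.60 and 0.70, adjusted p = 0.00341 and 0.00103). The other 8 did not pass, and of all 284 miRNAs 23.2% rose and 12.7% fell. With RLE factors 2 of the family rose and 3 fell. Without the 4 libraries, let-7c stood at 0.24 (adjusted p = 0.184) and let-7e at 0.33 (adjusted p = 0.0898). Those libraries were chosen by the share of this family, so the smaller differences follow in part from that choice. Members of such a family can take up each other's reads in counting, which makes the value of any 1 of them uncertain. None of the 5 miR-181 members passed, though 2 fell with RLE factors. In the list of miR-99, miR-100 and miR-125, 1 of 6 fell, miR-99a-3p (log2 -0.52, adjusted p = 0.00631), against 12.7% of all 284.

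Many of the higher calls lay in miRNAs with names of 1000 and above, which were catalogued late and of which many are known only from pig or a few mammals. Of 37 tested, 18 rose and 1 fell (median log2 0.52), against 23.2% and 12.7% of all 284, and with RLE factors the counts were also 18 and 1. Their summed level ran from 1792.8 through 2877.2 to 5901.8 CPM at 1 week and from 1101.7 through 1792.2 to 2318.3 at 1 day. The 4 high let-7 libraries held the 4 highest sums, 5279.2 to 5901.8 CPM. Without them 4 rose and none fell, against 8.83% and 2.47% of all 283 tested, so the called share was then near that of all. The list's median log2 difference was then 0.32, against 0.02 over all tested. An example of moderate abundance is miR-2366, which ran from 298.6 through 615 to 1345 CPM against 211.97 through 362 to 499.6 (log2 0.97, adjusted p = 0.001; without the 4, 0.56, adjusted p = 0.0581).

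Both arms of 60 hairpins were tested. Both arms rose for miR-1306, miR-296, miR-423, miR-671 and miR-92b, both fell for miR-130b, miR-151 and miR-199a, and 1 arm alone was called for 25 (over all 284 miRNAs 23.2% rose and 12.7% fell). Without the 4 libraries both arms passed for miR-130b only, 1 arm passed for miR-296 and miR-423, and no arm for the other 5. Arms were paired by name, and 1 pair, that of miR-30c, was called in opposite directions. Nearly the same miR-30c-5p counts were deposited under 2 precursors (totals of 122014 and 122001), so their hairpin of origin cannot be told. By name miR-30c-5p was paired with miR-30c-3p only, while miR-30c-1-3p, given below, also rose. miR-30c-5p ran from 66.7 through 141.8 to 179 CPM at 1 week and from 156 through 179.5 to 269 at 1 day (log2 -0.55, SE 0.22, adjusted p = 0.044), and miR-30c-3p ran from 58.4 through 74.5 to 129.5 against 44.7 through 59.7 to 72.4 (log2 0.47, SE 0.13, adjusted p = 0.00389). The more abundant of miR-30c-5p and miR-30c-3p therefore fell while the other rose. The call of miR-30c-5p was lost in 9 of 25 fits that left out 1 library (adjusted p up to 0.0822), and without the 4 libraries the differences were -0.39 (adjusted p = 0.211) and 0.30 (adjusted p = 0.0956). Within the miR-30 family as a whole, 3 of 10 rose and 2 fell, against 23.2% and 12.7% of all 284. The rising arms were miR-30c-1-3p (log2 0.81, adjusted p = 0.000904), miR-30b-3p (log2 0.64) and miR-30c-3p, and the falling ones miR-30c-5p and miR-30a-5p (log2 -0.35). With RLE factors 3 rose and 4 fell, and without the 4 libraries none was called.

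The same 25 animals also gave hippocampus together with amygdala, where 34 of 290 miRNAs were higher (11.7%) and 51 lower (17.6%) at 1 week than at 1 day. All 102 frontal calls were tested there: 100 had the same sign, 33 rose and 21 fell in both regions. The 2 with another sign, miR-708-5p and miR-378, were not called there (log2 -0.10 and -0.05, adjusted p = 0.401 and 0.762). The animals are shared between the regions, so this is no independent repeat. The share of same signs over all miRNAs tested is not given here, so the 100 cannot be set against it. All 12 of the largest frontal increases were called there as well, with log2 differences of 0.52 to 2.71, and 6 of the 12 largest decreases were. miR-22-3p ran from 230.2 through 347 to 459 CPM at 1 week and from 236 through 259 to 329.7 at 1 day in that region, so its groups overlapped (log2 0.37, adjusted p = 0.00327). miR-15b had nearly the same size in both regions, log2 -0.64 against -0.65. Without the same 4 animals, 1 miRNA was called in the hippocampus and amygdala (71 at an unadjusted p under 0.05).

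Whether the change from 1 day to 1 week differed between the regions was tested within animals. None of 290 miRNAs passed by edgeR with the animal as a block (23 at an unadjusted p under 0.05), nor by limma voom (21) or without the 4 animals (15). miR-708-5p came nearest (adjusted p = 0.2), and its change was larger by 0.36 on the log2 scale in the frontal lobe. A difference between the regions was therefore not detectable for any single miRNA with 25 animals, which does not show that the regions changed alike.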

How the data were processed

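Small RNA was extracted from fixed brain tissue and sequenced after library preparation with a QIAseq kit, per the labels' protocols. The authors deposited whole-number counts per porcine miRNA entry and library, not normalized. Trimmomatic 0.39 and cutadapt 1.9.1 were used, per the submitters' processing notes. For the aligner, counter, annotation, build and molecular identifiers, tools and settings were not given in the sources used here. Entries of 1 mature name, and differently named entries holding the same reads (6 sets), were reduced to the single entry with most counts, which left 448 of 542 entries. Sequences of the miRNAs were not used here.

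The 52 frontal lobe libraries (98008 to 12703535 counts, median over all 105 libraries 7257404) entered 1 fit of 4 groups with edgeR 4.0.16 in R 4.3.3 (glmQLFit, robust, TMM scaling, filterByExpr with a minimum count of 10 and minimum total of 15), and the contrast 1 week minus 1 day was tested 2-sided with Benjamini-Hochberg adjustment at 0.05. The procedure was tested on simulated data. Hippocampus and amygdala were fitted likewise, and the regions were compared with the animal as a block. Library totals, let-7 shares and numbers of miRNAs detected were compared by permutation tests with 100000 resamples. DESeq2 1.42.0, limma 3.58.1 (voom), other filters, row choices, covariates and subsets of libraries were alternatives. Leaving out the 4 high let-7 libraries was chosen after the data were seen.

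Named miRNAs are those called with a mean of at least 10 CPM in either group, the 12 largest increases and 12 largest decreases, a fixed panel, and in each list the members with the smallest p or highest mean. The comparison, lists and naming rule were chosen with earlier results of these data known. Among the 25 frontal libraries of the 1 week and 1 day groups, the most similar pair differed beyond sampling noise, so none was counted as a repeat. The sham and cyclosporine A libraries were not compared in this way.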

Additional observations from a re-analysis of the deposited data

Results flagged for a closer look

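For each library measure and each miRNA named or called, with 10 1 day values each, the highest and lowest animals were checked for standing apart by more than the critical share of the range. Chance flags about 1 in 20 such sets, and 4 were found, which is no more than chance would give over all the sets checked. miR-132 in 1 day replicate 1 was 212.2 CPM, against 151.5 to 180.1 in the other 9 animals. miR-142-5p, a leukocyte miRNA, was 46.42 CPM in 1 day replicate 2, against 18.13 to 30.72. miR-451, an erythroid miRNA, was 9.631 CPM in the same replicate, against 1.283 to 5.372. miR-185 was 2071 CPM in 1 day replicate 10, against 1494 to 1751.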

How the results depend on the processing

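The count of miRNAs called higher (66) was 39 with only 1 week codes carrying U, 0 with only 1 day codes beginning with 11 and 25 without the 4 high let-7 libraries, and lay between 54 and 82 in the other settings. The count called lower (36) was 56 with RLE factors, 64 with DESeq2, 57 with all deposited entries, 20 with the log10 library total as a covariate, 55 with only 1 week codes without a letter, 17 with those carrying U, 0 with 1 day codes beginning with 11 and 7 without the 4 libraries. Leaving out 1 library at a time gave 54 to 69 higher and 25 to 48 lower. The hippocampus and amygdala gave 1 call without the same 4 animals. The ratio of library totals was 0.882 without the 4 libraries (p = 0.287), and the let-7 difference was 4.19 points with all deposited entries (p = 0.014). No paired analysis was possible because no animal is in both groups and the numbers in the labels do not tie 1 day to 1 week animals.

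No called miRNA changed sign. Of the list members and named miRNAs recomputed under each setting, these, none of them called, changed sign (log2 difference). With only 1 day codes beginning with 11, miR-126-5p was 0.0159, miR-142-5p -0.0963, miR-146b 0.0538, miR-219a -0.0766, miR-143-3p 0.0259, miR-342 -0.0252. With RLE factors, miR-132 was -0.0153, miR-142-5p -0.0551, miR-210 -0.038, miR-342 -0.0218. With DESeq2, miR-132 was -0.00933, miR-142-5p -0.0528, miR-210 -0.0275, miR-342 -0.0213. With only 1 week codes without a letter, miR-132 was -0.207, miR-142-5p -0.121, miR-146a-5p -0.0379, miR-21-3p 0.234, miR-21-5p 0.008999, miR-210 -0.305, miR-342 -0.239, miR-145-5p -0.0779. With only 1 day codes beginning with 12 or 13, miR-132 was -0.0213, miR-21-3p 0.325. With 1 row per mature name, miR-142-5p was -0.0117. With only the 25 libraries, miR-142-5p was -0.00135. With the library total as a covariate, miR-146b was 0.0149. With only 1 week codes carrying U, miR-219a was -0.0193, miR-223 0.0381, miR-1 -0.0777, miR-143-3p 0.00508. With the 4 libraries left out, miR-219a was -0.00111, miR-143-3p 0.0175. Leaving out 1 library at a time gave log2 differences of -0.0747 to 0.133 for miR-142-5p, -0.197 to 0.109 for miR-21-3p, -0.0851 to 2.48e-05 for miR-21-5p, -0.0163 to 0.0627 for miR-210, -0.0327 to 0.182 for miR-219a, -0.0262 to 0.102 for miR-342.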
